A study of Mus musculus with 24 samples.

Results

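The Nfkb1 locus was examined across 24 ATAC-seq libraries of mouse bone marrow-derived macrophages. Nfkb1 spans 107315 bp of chromosome 3 (mm10, 135584655 to 135691969). A peak was counted for Nfkb1 when Nfkb1 was the gene nearest to its summit, within 50 kb, by RefSeq gene positions. Under this rule 410 of the 1274891 deposited peaks belonged to Nfkb1. Overlapping peaks of different libraries were merged into regions, which gave 30 regions at Nfkb1 of 102580 in all, and 26 of these were found in at least 2 libraries, of 80598 such regions in the series. Nfkb1 was chosen by the presence or absence of peaks at its regions in stimulated against unstimulated macrophages, so that contrast is described here without p-values. The threshold of an exact test serves there only as a rule for counting regions, and support is drawn only from the comparisons of diabetic with control macrophages. A region may act on another gene than the nearest one. In ATAC-seq of a whole culture, a stretch open in fewer cells and a stretch less open in each cell cannot be told apart.

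All mice were male and of the C57Bl/6 strain, and their ages are not given. Diabetes had been induced with streptozotocin (STZ), a toxin of pancreatic beta cells, and the control mice are labelled as non-diabetic. Macrophages were either left unstimulated or exposed to LPS, a bacterial cell wall component, at 100 ng/mL together with the cytokine IFNγ at 10 ng/mL. The 4 groups were control unstimulated, control stimulated, diabetic unstimulated and diabetic stimulated, with 6 libraries each. The series description says that 6 diabetic and 6 control samples were divided between the states, and the labels do not say which libraries came from the same mouse. The length of stimulation is uncertain, since the protocol gives 6 h for IL-1β samples and the other labels do not mention IL-1β. The macrophages were grown from marrow, and the glucose level of their culture is not given.

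Nfkb1 encodes the p105 precursor, which is processed to p50, a DNA-binding subunit of the transcription factor NF-κB. Homodimers of p50 lack a transactivation domain and can occupy NF-κB sites without activating them, whereas p50 with RelA is the classical activating dimer. In resting macrophages p105 and the IκB proteins hold NF-κB dimers in the cytoplasm. LPS signals through TLR4 and the IKK complex to release them, and Nfkb1 is itself a known NF-κB target gene, as are several inhibitors of the pathway. ATAC-seq records where the Tn5 transposase can reach DNA, and a peak marks a stretch of accessible chromatin such as a promoter or an enhancer. No transcript or protein was measured in these libraries.

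The peak lists held 41385 to 61861 peaks per library, and the read depth behind them was not given in the sources used here. Stimulated control libraries had the shortest lists, with 47268 ± 4535 peaks (SD, n = 6) against 55990 ± 3486 in unstimulated control libraries. In diabetic macrophages the means were 53703 ± 4511 after stimulation and 55522 ± 4925 at rest (SD, n = 6 each). Of 10 macrophage marker genes, 7 had a peak within 1 kb of an end of the gene in every library, and Csf1r and Lyz2 had one in 18 libraries and Spi1 in 21. The mean number of macrophage markers with such a peak was 10 at rest in both phenotypes, 8.5 in stimulated control and 9 in stimulated diabetic libraries. Of 7 neutrophil markers, Elane, Mpo, Ltf and Ly6g had such a peak in 0 libraries, Camp in 24, S100a8 in 22 and Cebpe in 15. Cebpe had it in all 12 unstimulated libraries, 1 stimulated control and 2 stimulated diabetic libraries. In 0 libraries there was such a peak at 5 of 7 T and NK cell markers, 3 of 6 B cell, 4 of 5 erythroid and 1 of 6 stromal and endothelial markers. Others of these lists had one in most libraries, Cd3d and Kdr in 24, Cd4 in 23, Ebf1 in 21 and Col1a1 in 19. A region without a peak is one that did not reach the calling threshold in that library. It is not shown to be closed.

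Each region is named by the distance in kb from the upper-coordinate end of Nfkb1 to the median summit of its peaks. Nfkb1 is transcribed from that end towards lower coordinates, so that positive distances run into the gene and negative distances run upstream of it. Of the 26 regions, 19 lay inside the gene, 6 beyond its upper end and 1 beyond its lower end. Their widths ranged from 174 to 1451 bp with a median of 400 bp. Of the 410 peaks, 303 lay inside the gene, 102 beyond the upper end and 5 beyond the lower end. Exon positions were not used here, so that no region is given as exonic or intronic.

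**Figure D1:**
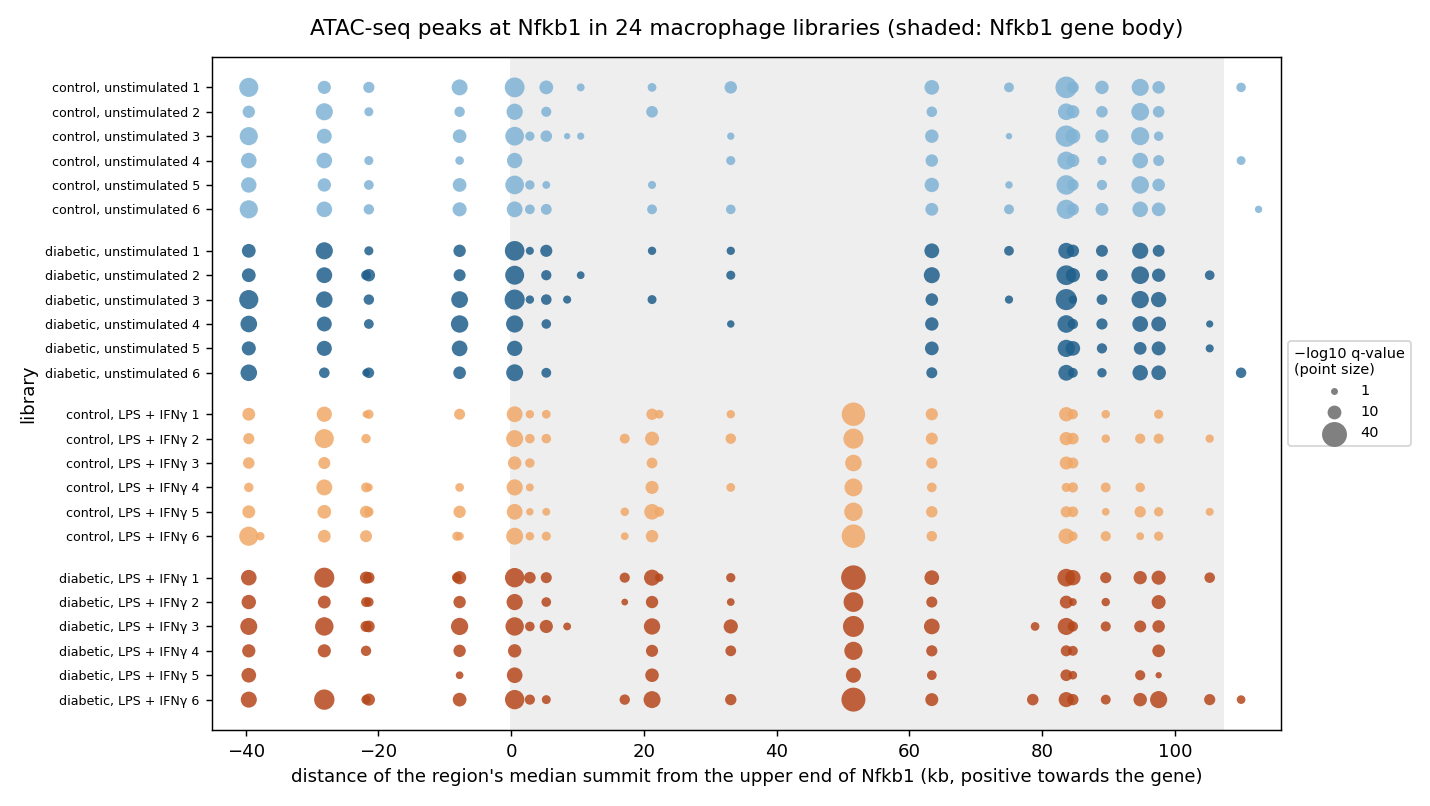
Peaks at Nfkb1 by library. The x axis gives the distance of each region's median summit from the upper end of the gene in kb, each row is 1 library, point area follows the deposited −log10 q-value, and grey marks the gene body. A column of points at +51.6 kb is present in the 12 stimulated libraries and in no unstimulated library, while 5 regions have a point in all 24.

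The map of peaks by library shows which stretches were shared. Peaks in all 24 libraries were found at 5 regions, at +84.6, +83.6, +63.4, +0.5 and −39.5 kb. They made up 19.2% of the Nfkb1 regions, against 28.3% of the regions of the series (22770 of 80598). Another 4 regions, at +97.6, +94.8, −7.8 and −28.1 kb, were found in at least 20 libraries but not in all. All 4 were found in every unstimulated library. The libraries without the region at +97.6 kb (135594258 to 135594652) were stimulated control replicates 3 and 4. In control libraries with a peak there, its fold was 5.03 to 7.32 (median 6.52) at rest and 4.69 to 5.39 (median 5.11) after stimulation. In diabetic libraries it was 6.08 to 8.54 (median 7.68) at rest and 3.6 to 10.3 (median 7.27) after stimulation. After stimulation, 5 of 6 diabetic libraries stood above every control library with a peak, and diabetic replicate 5 stood below them all. This gap leaves out control replicates 3 and 4, was picked out after the values were seen, and was not tested. Across the regions of the series found in all libraries, stimulated diabetic libraries also tended to higher folds. Their median fold per library was 7.77 to 9.94, against 7.35 to 8.26 in stimulated control libraries. The libraries without the region at −7.8 kb (135699477 to 135700018) were stimulated control replicates 2 and 3. Stimulated diabetic replicate 5 alone lacked a peak at −28.1 kb (135719914 to 135720691). The remaining 17 regions were found in fewer than 20 libraries.

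The region at +0.5 kb (135690627 to 135692077) covers the upper end of the gene, where transcription of Nfkb1 starts. It was the widest region of the locus, 1451 bp, and held 46 of the 410 peaks. A peak summit close to 0.51 kb inside the gene was present in all 24 libraries. A further summit close to 1.13 kb was called in 17 libraries, of which 11 were unstimulated and 6 stimulated. It was present in 6 control and 5 diabetic libraries at rest and in 3 of each phenotype after stimulation. The span of the peaks in the region, from the first start to the last end, includes any gaps between peaks. Its median was 1200 bp at rest and 983 bp after stimulation in control libraries, and 1270 bp and 1120 bp in diabetic ones. The ranges of the states overlapped in both phenotypes.

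The strength of each peak is given as the authors' fold enrichment over the local background. The fold at +0.5 kb ranged from 6.82 to 8.25 (median 7.81) in unstimulated control libraries and from 6.16 to 7.68 (median 6.96) in stimulated control libraries. In diabetic libraries it ranged from 6.97 to 8.78 (median 7.94) at rest and from 6.09 to 8.2 (median 7.34) after stimulation. The 4 ranges overlapped. Across the 22770 regions found in all libraries, the median fold per library was 9.35 to 10.5 at rest and 7.35 to 8.26 after stimulation in control macrophages. In diabetic macrophages it was 9.1 to 10.1 at rest and 7.77 to 9.94 after stimulation. The stimulated lists thus tended to lower folds over these shared regions, with overlapping ranges in diabetic macrophages. The part of this tendency in the lower folds at single Nfkb1 regions was not tested.

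Among the always-found regions inside the gene, the one at +83.6 kb (135608047 to 135608520) had the clearest separation of the states by fold. Its fold was 8.53 to 10.7 (median 9.73) in unstimulated control and 4.45 to 7.38 (median 6.52) in stimulated control libraries. In diabetic libraries it was 7.85 to 11.1 (median 8.84) at rest and 5.77 to 7.72 (median 6.91) after stimulation. By −log10 q-value the states overlapped there, with 18.2 to 34.9 at rest and 5.37 to 23.1 after stimulation. Within their own lists these peaks stood at or above 75.1% to 90.4% of peaks at rest and 34.3% to 81.6% after stimulation. By fold, all 12 unstimulated libraries stood above all 12 stimulated libraries. The adjacent region at +84.6 kb (135607098 to 135607615) did not show this, with medians of 5.58 and 5.1 in unstimulated and stimulated control libraries and of 5.03 and 4.79 in the diabetic ones, and with overlapping ranges. The region at +63.4 kb (135627998 to 135629162) was 1165 bp wide and held 38 peaks. Its median fold was 7.35 and 6.38 in unstimulated and stimulated control libraries and 7.47 and 6.72 in the diabetic ones, again with overlapping ranges. The median span of its peaks, gaps included, was 912 bp and 968 bp in the unstimulated control and diabetic groups. In the stimulated groups it was 543 bp and 590 bp, with ranges that overlapped those at rest.

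Upstream of the gene, the region at −39.5 kb (135731343 to 135731705) was also found in every library. In control libraries its fold was 7.89 to 13.9 (median 11.7) at rest and 5.63 to 12 (median 7.72) after stimulation. In diabetic libraries it was 9.14 to 14 (median 10.3) at rest and 8.62 to 11.4 (median 9.81) after stimulation. All of these ranges overlapped.

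**Figure D2:**
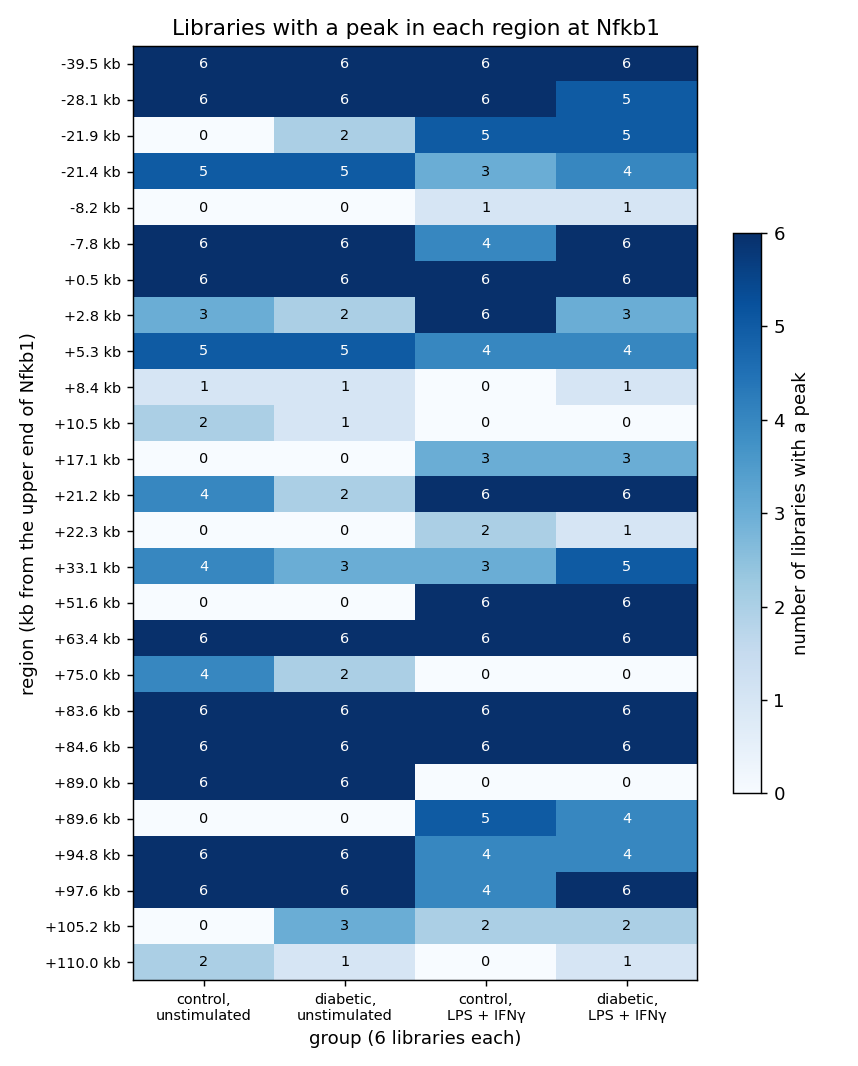
Number of libraries with a peak in each of the 26 Nfkb1 regions, by group. Rows are regions named by their distance in kb from the upper end of Nfkb1, columns are the 4 groups of 6 libraries, and the colour and the printed number give how many libraries had a peak. The region at +51.6 kb reads 6 in both stimulated groups and 0 in both unstimulated ones, and the region at +89.0 kb reads the reverse.

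Of the 26 regions, 5 were found only in stimulated libraries, 3 only in unstimulated libraries and 18 in both. Over the series, 7.83% of the regions were found only in stimulated and 9.51% only in unstimulated libraries. When both phenotypes were pooled, 12 Nfkb1 regions could reach the threshold of Fisher's exact test, and 5 of them passed with more stimulated libraries and 2 with fewer. Over the 31219 regions tested in the series, 9.19% passed with more and 18.9% with fewer stimulated libraries. These counts chose the gene and are given as a description only. The part of the list lengths and of the peaks at macrophage markers and Cebpe, all lower on average in stimulated libraries, was not tested. With all peak lists shortened to equal length, the split over the series moved from 2868 and 5901 to 3170 and 3838 regions, or from 67.3% to 54.8% with fewer stimulated libraries.

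The region at +51.6 kb lies deep inside the gene (135640137 to 135640654) and had a peak in all 12 stimulated libraries and in 0 of the 12 unstimulated ones. All its summits fell within 84 bp of each other. Its fold was 9.76 to 14.1 (median 11.2) in stimulated control and 9.44 to 14.7 (median 11.2) in stimulated diabetic libraries. The values of the phenotypes overlapped. By −log10 q-value these peaks stood above 83.5% to 99.2% of the peaks of their own lists. It was the strongest Nfkb1 region by −log10 q-value in 11 of the 12 stimulated libraries. The exception was stimulated diabetic replicate 5, in which the promoter region at +0.5 kb was strongest.

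A pair of regions further along the gene, at +89.6 and +89.0 kb, lay 32 bp apart with summits 571 bp from each other. The region at +89.0 kb (135602697 to 135603299) had a peak in all 12 unstimulated libraries and in 0 of the 12 stimulated ones. Its fold was 4.55 to 6.4 (median 6.01) in unstimulated control and 4.79 to 5.71 (median 5.42) in unstimulated diabetic libraries. The region at +89.6 kb (135602136 to 135602664) was found in no unstimulated library, in 5 stimulated control libraries with a fold of 4.1 to 5.49 and in 4 stimulated diabetic libraries with a fold of 4.49 to 5.37. No library had both. Among the 12 stimulated libraries, 9 had only the region at +89.6 kb, and control replicate 3 and diabetic replicates 4 and 5 had neither. All peaks of both regions had lower folds than the weakest peak at +51.6 kb.

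Just upstream of the promoter, the regions at −7.8 and −8.2 kb lay 46 bp apart. The region at −7.8 kb had a peak in all 12 unstimulated and 10 of 12 stimulated libraries. The region at −8.2 kb (135700065 to 135700238) was found in 1 stimulated library of each phenotype, each time beside a peak at −7.8 kb.

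Upstream, the regions at −21.4 kb (135713196 to 135713559) and −21.9 kb (135713601 to 135713998) formed a similar pair, 41 bp apart with summits 423 bp from each other. Among unstimulated libraries, 8 had only the region at −21.4 kb, 2 had both and 2 had neither. Among stimulated libraries, 7 had both, 3 had only the region at −21.9 kb and 2 had neither. In all, the region at −21.9 kb was found in 0 of 6 unstimulated control and 2 of 6 unstimulated diabetic libraries, and in 5 of 6 libraries of each stimulated group. Its fold was 4.52 and 6.02 in the 2 unstimulated diabetic libraries, 4.12 to 8.06 (median 6.09) in stimulated control and 5.58 to 7.41 (median 6.58) in stimulated diabetic libraries. At −21.4 kb the numbers were 5 and 3 for control libraries at rest and after stimulation, and 5 and 4 for diabetic libraries.

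The region at +21.2 kb (135670452 to 135671157) was found in all 12 stimulated libraries and in 4 control and 2 diabetic libraries at rest. Where it was found, its fold was 5.55 to 8.11 (median 6.53) in stimulated control and 6.45 to 8.89 (median 7.57) in stimulated diabetic libraries. The 4 unstimulated control libraries gave 4.75 to 7.5 (median 5.64), of which 2 lay inside the range of the stimulated libraries and 2 below all of them, and the 2 unstimulated diabetic libraries gave 4.98 and 5.42. The region at +17.1 kb (135674739 to 135675140) was found in 3 stimulated libraries of each phenotype and in no unstimulated library, with folds of 3.59 to 4.94 in control and 3.51 to 5.23 in diabetic libraries. In the opposite direction, the region at +75.0 kb (135616814 to 135617132) was found in 4 control and 2 diabetic libraries at rest and in no stimulated library. Its fold was 3.66 to 6.13 in the control and 4.88 and 5.99 in the diabetic libraries.

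The other regions were found in part of both states or in few libraries. The region at +2.8 kb was found in 3 control and 2 diabetic libraries at rest, and in 6 control and 3 diabetic libraries after stimulation. The region at +5.3 kb (135686477 to 135686806) was found in 5 libraries of each phenotype at rest and in 4 of each after stimulation. For +33.1 kb (135658686 to 135659111) the numbers were 4 and 3 at rest, and 3 and 5 after stimulation, in control and diabetic libraries. The regions at +110.0, +22.3, +10.5, +8.4 and −8.2 kb were each found in 2 to 4 libraries. A further 4 regions, at +112.6, +78.9, +78.6 and −37.8 kb, were found in 1 library each and entered no comparison.

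The regions at +75.0, +21.2 and +17.1 kb passed the threshold only narrowly. Leaving out a single library, even one without a peak there, could move them past it. Leaving out any 1 library also raised the number of tested regions over the series. The description of +75.0 kb as more frequent at rest passed the same threshold in 13 of 24 repeats that each left out 1 library, and did not pass without unstimulated control replicates 1, 3, 5 or 6, stimulated control replicates 1 to 5, or unstimulated diabetic replicates 1 or 3. For +21.2 kb it passed in 13 of 24 repeats, and not without unstimulated control replicates 3 or 4, stimulated control replicates 1 to 5, or unstimulated diabetic replicates 2, 4, 5 or 6. For +17.1 kb it passed in 10 of 24, and not without any 1 of the 12 unstimulated libraries or without stimulated control replicates 2 or 5. With only peaks at −log10 q of 5 or more, or with lists of equal length, the regions at +75.0 and +17.1 kb no longer passed, whereas at +21.2 kb the excess of stimulated libraries went from 6 to 9 and 10.

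**Figure D3:**
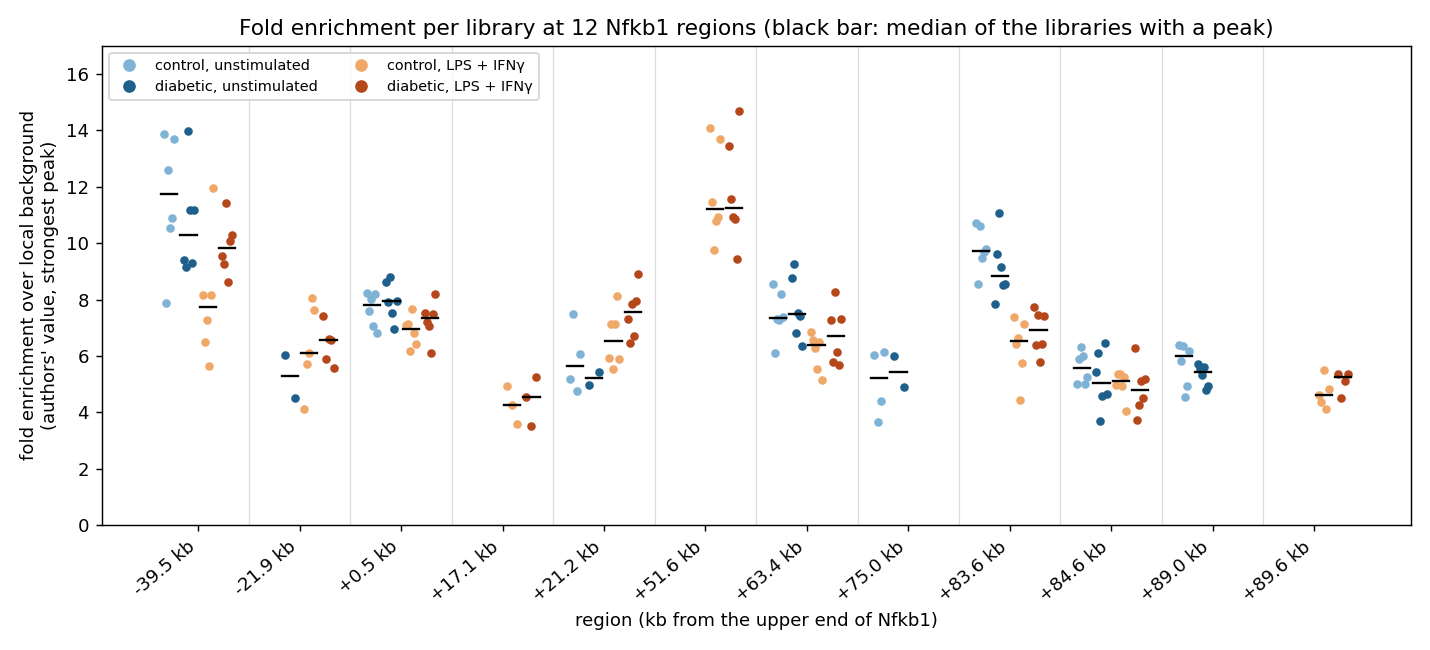
Fold enrichment per library at 12 Nfkb1 regions. The y axis is the authors' fold over local background of the strongest peak, each point is 1 library, colours are the 4 groups, and the black bar is the median of the libraries with a peak. Points at +51.6 kb lie between 9.44 and 14.7 and come only from stimulated libraries, and at +83.6 kb all unstimulated points lie above all stimulated ones.

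Within each phenotype 6 libraries stood against 6, and fewer Nfkb1 regions could reach the threshold of the same counting rule. In control macrophages 5 Nfkb1 regions could reach the threshold, of which those at +89.6, +51.6 and −21.9 kb passed with more stimulated libraries and the one at +89.0 kb with fewer. The series gave 8.41% and 27.5% of 12111 regions for these directions. In diabetic macrophages 5 regions could reach it, of which +51.6 kb passed with more and +89.0 kb with fewer, while the series gave 5.47% and 3.44% of 11708 regions. The regions at +89.6 and −21.9 kb that passed in control macrophages alone were found in 4 and 5 of 6 stimulated diabetic libraries, against 0 and 2 of 6 at rest. Passing in control macrophages alone does not show that the phenotypes differ, and the counts at these 2 regions did not allow a test of that difference to reach the threshold.

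The order of the Nfkb1 regions inside each list was compared as well. Among the 5 regions found in every library, the one at +83.6 kb had the highest −log10 q-value in 10 of 12 unstimulated and 0 of 12 stimulated libraries. The promoter region at +0.5 kb was highest in the other 2 unstimulated and in 11 stimulated libraries, and the region at −39.5 kb in 1 stimulated library. When all Nfkb1 regions of a list were ranked, +83.6 kb came first in 9 unstimulated libraries, +0.5 kb in 2 and +94.8 kb in 1. The region at +94.8 kb (135596916 to 135597425) was found in 6 of 6 libraries of both unstimulated groups and in 4 of 6 of both stimulated groups. Its median fold was 9.93 and 8.89 in unstimulated control and diabetic libraries, and 5.56 and 6.43 in the stimulated libraries that had it. Unstimulated control libraries had folds of 8.66 to 11, above every stimulated library, of which the highest was at 7.63. Unstimulated diabetic libraries had folds of 6.55 to 10.2. Only replicate 5, at 6.55, overlapped with the stimulated ones, and the other 5 stood above all of them.

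**Figure D4:**
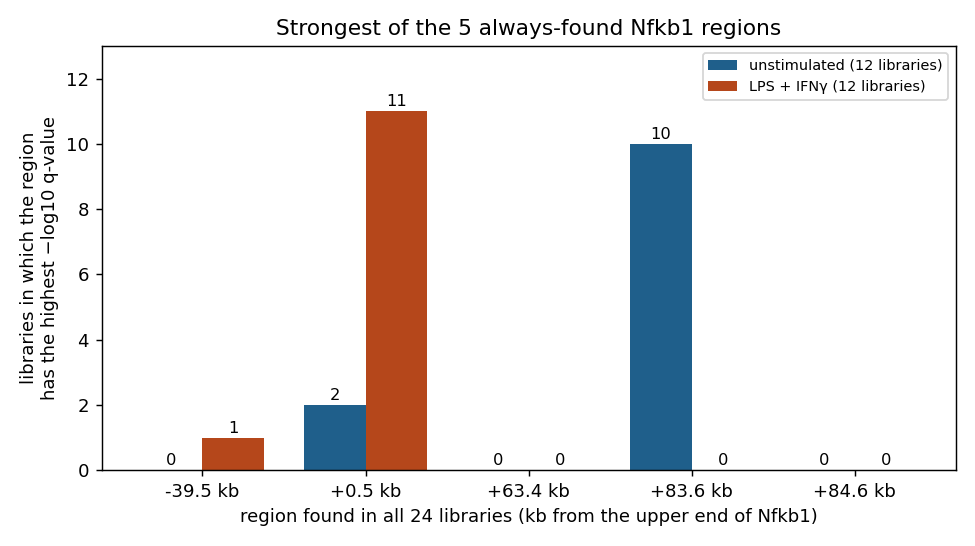
Which of the 5 always-found Nfkb1 regions was strongest. Bars starting at 0 give the number of libraries, of 12 per state, in which the region on the x axis had the highest −log10 q-value of the 5. The region at +83.6 kb leads in 10 unstimulated libraries and the promoter region at +0.5 kb in 11 stimulated ones.

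Diabetic and control macrophages were then compared, which the choice of the gene did not use. At rest, 4 Nfkb1 regions could reach the threshold, and 0 of them passed Fisher's exact test at an adjusted p under 0.05. Over the series 0% of 8788 regions passed, with 137 at an unadjusted p under 0.05 and a smallest adjusted p of 0.972. After stimulation 0 of 2 testable Nfkb1 regions passed, beside 0% of 9681 regions of the series, with 292 at an unadjusted p under 0.05 and a smallest adjusted p of 0.502. The testable regions were those at +75.0, +33.1, +21.2 and +2.8 kb at rest, with unadjusted p of 0.567 or 1 by Fisher's exact test, and those at +17.1 and −21.4 kb after stimulation, with p = 1 by the same exact test. The widest gaps in counts were at regions that could not reach the threshold. At rest the region at +105.2 kb (135586550 to 135586866) was found in 0 control and 3 diabetic libraries, and after stimulation the region at +2.8 kb (135689025 to 135689289) was found in 6 control and 3 diabetic libraries.

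Whether the effect of stimulation differed between diabetic and control macrophages was tested with the exact test of Zelen for a common odds ratio. It takes all libraries as independent, although samples were divided between the states. At Nfkb1 the 2 testable regions were those at +33.1 and +2.8 kb, and 0 of them passed, with an adjusted p of 1 by this exact test for both, beside 0% of 9353 regions of the series, of which 229 had an unadjusted p under 0.05 and the smallest adjusted p was 1. The regions at +51.6 and +89.0 kb had identical counts in both phenotypes. Fisher's test of stimulated diabetic against control libraries, 6 against 6, was run on simulated lists of 80598 regions. It recovered 0% of 200 regions that changed almost completely and 71.5% of 2000. The absence of calls by that test therefore does not show that the phenotypes are alike. Zelen's test recovered 96.5% of 200 simulated regions that changed almost completely and in opposite directions in the 2 phenotypes. A change confined to the diabetic or the control macrophages was not simulated. The absence of calls by Zelen's test therefore does not show a like response either.

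The number of peaks at Nfkb1 per library gave a test that did not depend on single regions. It was 20, 14, 17, 15, 17 and 18 in unstimulated control and 19, 16, 19, 16, 13 and 17 in unstimulated diabetic replicates 1 to 6. The means were 16.8 ± 2.14 and 16.7 ± 2.25 (SD, n = 6 each), a difference of −0.167 with p = 1 by a two-sided exact permutation test. After stimulation the numbers were 19, 19, 9, 15, 20 and 20 in control and 22, 17, 21, 12, 12 and 23 in diabetic replicates. The means were 17 ± 4.34 and 17.8 ± 4.96 (SD, n = 6 each), a difference of 0.833 with p = 0.803 by the same exact permutation test. The difference between these differences was 1, with an exact permutation p of 0.778. That permutation moved the phenotype labels separately in each state. It could not keep libraries of the same mouse together, since the labels do not identify them. The adjusted p was 1 for all 3 comparisons. The groups overlapped throughout, and the spread was wider after stimulation in both phenotypes. Leaving out stimulated control replicate 3 turned the difference after stimulation to −0.767 and the difference between differences to −0.6, and leaving out stimulated diabetic replicate 6 turned them to −0.2 and −0.0333. At rest the difference turned to 0.467 without unstimulated control replicate 1, to 0.0667 without unstimulated control replicate 6 and to 0.567 without unstimulated diabetic replicate 5.

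**Figure D5:**
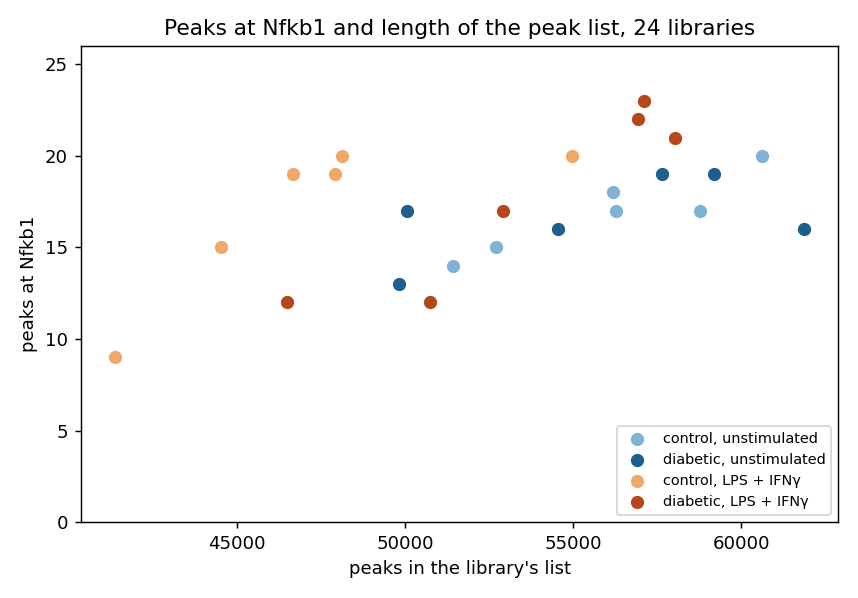
Peaks at Nfkb1 against the length of the peak list. Each point is 1 of the 24 libraries, the x axis is the number of peaks in its list, the y axis is the number of peaks at Nfkb1, and colours are the 4 groups. The shortest list, stimulated control replicate 3 with 41385 peaks, had the fewest Nfkb1 peaks, 9, and the diabetic and control points of each state overlap.

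Stimulated control replicate 3 had the shortest list of all libraries and the fewest Nfkb1 peaks. Per 10000 peaks of the list, the mean number at Nfkb1 was 3.00 in control and 3.01 in diabetic libraries at rest, and 3.56 in control and 3.28 in diabetic libraries after stimulation. By this measure the difference of diabetic from control libraries had the opposite sign to that of the peak number itself, at rest and after stimulation. Beyond the alternative settings, the part of list length in these numbers was not tested.

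Regions were then counted in the same way for 25 other genes of the NF-κB pathway, of which all matched. Together they had 188 regions, and of 71 testable ones 7 were found in more and 17 in fewer stimulated libraries, beside the 9.19% and 18.9% of the series. Of the other subunits, Rel, which encodes the haematopoietic subunit c-Rel, had 10 regions, 5 of them testable. Of these, 1 passed with more and 2 with fewer stimulated libraries. Rela, Relb and Nfkb2 had 3, 2 and 2 regions, of which 0, 1 and 0 were testable, and none passed. Nfkb1, a long gene with 26 regions, had more than these 4 genes together, which had 17. Among the genes of the IκB family, Nfkbiz, encoding a nuclear IκB that acts with p50, had 2 with more and 2 with fewer of 5 testable regions. Nfkbia, encoding IκBα, had 0 and 2 of 6 testable regions. Nfkbib, Nfkbie, Nfkbid and Bcl3 had none, with 0, 2, 2 and 1 testable regions.

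In the list of the IKK complex and upstream kinases, Ikbkb, the catalytic IKKβ, had 1 of 2 testable regions with more stimulated libraries. Map3k7, the kinase TAK1, had 2 of 4 with fewer. Map3k8, the kinase TPL2 that p105 binds and holds inactive, had 1 with fewer of 10 regions, 3 of them testable. Chuk, Ikbkg, Ikbke, Tbk1 and Map3k14 had none, with 0, 3, 2, 2 and 2 testable regions. Of the brakes of the pathway, Tnfaip3, encoding the ubiquitin-editing enzyme A20, had 1 with more and 2 with fewer of 18 regions, 10 of them testable. Tnip1 and Tank each had 1 with more, of 2 and 6 testable regions. Tnip3 had 5 with fewer of 10 testable regions and Cyld 1 with fewer of 1. The series shares were 9.19% with more and 18.9% with fewer. So few testable regions per gene give no ground for a contrast with these shares. In all, 14 of the 25 genes had no region that passed. Among these, Rela, Nfkb2, Nfkbib and Chuk had no testable region, so that none could pass. None of the 188 regions passed a comparison of diabetic with control macrophages, with 18 testable at rest, 26 after stimulation and 20 for the difference between phenotypes in the effect of stimulation.

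The genes beside Nfkb1 were Manba, which encodes the lysosomal enzyme beta-mannosidase, and Slc39a8, a zinc and manganese transporter, with Ube2d3 and Cisd2 further along. No region of these 4 genes passed with more stimulated libraries, beside 9.19% of the tested regions of the series. Manba had 3 regions of 10 with fewer, Ube2d3 1 of 3, Cisd2 1 of 6 and Slc39a8 0 of 7, beside 18.9% of those tested in the series. Only 5, 1, 2 and 3 regions of these genes, in the same order, could reach the threshold. So few testable regions give no ground for a contrast with Nfkb1. The edges of the Nfkb1 set were read among regions found in at least 2 libraries. The region next beyond the lower edge (135574786 to 135575091) lay 9.72 kb from Nfkb1 and 3.53 kb from Manba, and was therefore counted for Manba. It was found in 5 control and 6 diabetic libraries at rest and in 0 and 1 after stimulation. The last region inside that edge was at +110.0 kb (135581860 to 135582186), 2.66 kb from the gene body. It was found in 2 control libraries and 1 diabetic library at rest, and in 0 and 1 after stimulation. The region at +112.6 kb, found in 1 library, lay further out. At the upper edge, the last region inside was at 39.5 kb, and the first outside (135752198 to 135752478) lay 60.4 kb away and was found in 2 unstimulated diabetic libraries alone.

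Among 5064 genes with at least 5 regions, the median number of regions was 8, and 168 genes had 26 or more. In 14 of the 5064 genes, Nfkb1 among them, at least 5 regions passed with more stimulated libraries. In 10 of them, at least 5 passed with more and at least 2 with fewer. Nfkb1 was chosen by this contrast, so these counts are a description only. They were not set against the number of testable regions of each gene. The genes whose number of regions per library was most like that of Nfkb1 over the 24 libraries were Gmeb2 (Pearson's r = 0.817), Capza2 (0.812), Slc23a2 (0.811), Upb1 (0.787) and Atxn7l1 (0.769). These values share the length of the lists, with which the same 5 genes had r between 0.247 and 0.648 and Nfkb1 0.515, and they are given as a description with no test.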

How the data were processed

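Accessible chromatin was measured by ATAC-seq in 24 libraries, 6 in each of 4 groups taken from the labels. Per the labels' protocols, each replicate used the nuclei of 50000 cells, size selection removed fragments over 1200 bp, and single reads were 50 bp long. MACS2 2.1.1, Bowtie2 2.2.6 and the mm10 build are named in the submitters' processing notes, beside FastQC 0.11.3, Trim Galore 1.8 and DiffBind 2.4.8. The read depth, the settings and any Tn5 offset shift were not given in the sources used here. The authors deposited 1 narrowPeak list per library, called separately for each. The deposited columns give a peak's position, a score derived from the q-value, a fold over the local background, and −log10 p-values and −log10 q-values. The smallest deposited −log10 q-value was 1.30, so weaker signal is not in the lists. Fold and −log10 values are the authors' own and serve here to describe peaks within a list.

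Peaks overlapping by at least 1 bp were merged over the 24 lists, and a region entered the tests when 2 or more libraries had it. A region was assigned by its summit to the nearest RefSeq gene (GRCm38.p6, the mm10 build) within 50 kb. For each region the numbers of libraries with a peak were compared by Fisher's exact test, and the difference in effect by Zelen's exact test. Regions whose totals allow a small enough p were tested, and p-values were adjusted by the Benjamini-Hochberg method over all such regions of the series (threshold 0.05). Peak numbers at Nfkb1 were compared by exact permutation tests. Nothing says that the libraries of a group came from separate cultures beyond the description's count of samples, and p-values measure the spread between these libraries. The tests were checked on simulated lists.

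Regions of Nfkb1 given with values are those found in at least 2 libraries. The gene and the gene lists were chosen with earlier results of these data known, and counts over them are descriptions. Alternatives used a −log10 q-value of at least 5, lists cut to equal length, summits within 150 bp, the core of each region, adjustment over all regions, pairing by replicate number, and each library left out. Analyses used Python 3.11.15, numpy 2.4.6, pandas 2.3.3, scipy 1.17.1 and matplotlib 3.10.9.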

Additional observations from a re-analysis of the deposited data

Results flagged for a closer look

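Among 70 sets of 4 to 6 values within a group, which include the folds at regions of Nfkb1, 2 held a library that stood apart from the others. Chance gives about 1 in 20. At +84.6 kb, stimulated control replicate 6 had a fold of 4.05, the lowest of its group, with a gap to its neighbour of 0.667 of the group's range. At +94.8 kb, unstimulated diabetic replicate 5 had a fold of 6.55, the lowest of its group, with a gap of 0.627 of the range.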

How the results depend on the processing

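As a description, since these counts chose the gene, the regions at +51.6 and +89.0 kb passed the threshold of the pooled stimulation contrast under all 6 other settings, +89.6 kb under 5 (not for peaks at −log10 q of 5 or more) and −21.9 kb under 5 (not with adjustment over all regions). The number passing with more and with fewer stimulated libraries, 5 and 2, became 3 and 1 for peaks at −log10 q of 5 or more, 4 and 1 with lists of equal length, 3 and 1 with summits within 150 bp, 2 and 1 with adjustment over all regions, and 5 and 2 with region cores. Leaving out 1 library gave 3 to 5 and 1 to 2. Over the series, adjustment over all regions gave 1581 and 2570. No region passed a comparison of phenotypes under any of these. Per 10000 peaks, the difference in Nfkb1 peaks became 0.00727 at rest, −0.284 after stimulation and −0.291 between them, each with its sign reversed. For the number of Nfkb1 peaks itself, leaving out 1 library gave −0.733 to 0.567, −0.767 to 2 and −0.6 to 2.17. The causes were not tested.

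With replicate numbers as a pairing (replicate block, exact McNemar test), 3 and 1 Nfkb1 regions passed, and the peak number differed by −0.167 at rest (exact permutation p = 1) and 0.833 after stimulation (exact permutation p = 0.781). Same-numbered libraries did not deviate together. Their correlation was −0.00979 to 0.00902 between states, highest for the own number in 2 of 12 libraries, and −0.0518 to 0.0116 between phenotypes, in 0 of 12.

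Limits: peaks, not reads, were compared, so a signal just under the calling threshold counts as missing, and short lists hold fewer weak peaks. With 6 libraries against 6, a region found in all of one group and none of the other passes only where many regions change.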
